A study of Mus musculus with 20 samples.

Results

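Gene expression in primitive endoderm made from mouse ES cells lacking Dnmt3a and Dnmt3b (DKO PE) was compared with that in primitive endoderm made in the same way from wild-type ES cells (WT PE). The comparison took the 2 DKO PE and the 2 WT PE arrays of a series of 20 Affymetrix MOE430v2 arrays and covered 18194 genes. Each gene was read by 1 probe set, the one with the highest mean over the 20 arrays among those with a single gene symbol. The DKO ES and WT ES arrays, again 2 of each, showed which differences were there before Gata4 was activated.

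All of these cells were J1 ES cells of the 129sv/Jae strain and carried Gata4GR, a fusion of Gata4 with the hormone-binding part of the human glucocorticoid receptor under the CAG promoter. DKO PE had the genotype Dnmt3a-/-Dnmt3b-/- and WT PE had both genes, and both were made with 100 nM dexamethasone (Dex) for 4 days in ES medium with LIF. DKO ES and WT ES cells were the same lines without Dex. Each genotype was 1 transgenic clone, so genotype and clone cannot be told apart. Both arrays of a group are given as biological replicates, from independent experiments.

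Primitive endoderm is the first extraembryonic endoderm of the mouse embryo and later forms the visceral endoderm, which takes up and secretes nutrients, and the parietal endoderm, which lays down a thick basement membrane. Gata4 and Gata6 drive this lineage, and their activation in ES cells is enough to start it. Dnmt3a and Dnmt3b are the enzymes that set new DNA methylation, which in the embryo silences the promoters of many germ line genes.

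The arrays were first checked against their labels. Dnmt3b was at log2 values of 6.64 and 6.85 in the DKO PE arrays, against 12.06 and 12.30 in the WT PE arrays. Dnmt3a was at 6.18 and 6.64 in DKO PE and at 8.30 and 8.58 in WT PE. Where the probe sets lie relative to the deleted exons was not analysed here. Gata4 was at 10.37 and 10.48 in DKO PE, against 10.25 and 10.76 in WT PE. In ES cells, which carried the same transgene without Dex, it was at 5.37 and 4.81 in DKO and 5.21 and 5.49 in WT. The probe set used was thus low in cells that held the transgene, and where it lies relative to the transgene was not analysed. The summed linear level of 12 PE markers (Gata6, Gata4, Sox17, Sox7, Pdgfra, Dab2, Lama1, Lamb1, Col4a1, Col4a2, Sparc and Foxa2) was 127438 and 131237 in DKO PE and 115445 and 112092 in WT PE, against 3323 to 6098 in the 4 ES arrays, and 0 of the 12 differed between the PE groups. The 12 markers of undifferentiated ES cells summed to 25170 and 25099 in DKO PE and to 30556 and 28969 in WT PE, against 58957 to 75293 in ES cells, and 7 of the 12 were lower in DKO PE. This linear sum in PE came mostly from Dppa5a, at 13.88 to 14.08 over the 4 PE arrays, and Klf4, at 12.55 to 12.98. Neither was called, so the sum says little about the other markers. Markers of mesoderm, trophoblast, definitive endoderm and fibroblasts summed to 99 to 469 in all 4 PE arrays, and none of these markers differed between the PE groups. Markers of neuroectoderm summed to 725 and 771 in DKO PE and to 670 and 571 in WT PE, and 1 of the 5 was lower.

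A gene was called where limma's adjusted p (Benjamini-Hochberg, over all 18194 genes) fell below 0.05 and the groups differed by 2-fold or more. Of all genes, 206 (1.13%) were higher and 150 (0.824%) were lower in DKO PE. The 2 DKO arrays lay on one side of the 2 WT arrays in all 356, but also in 49.2% of all genes, so that with 2 arrays a group this separation says little. At least 4-fold differences were found in 53 of the higher and 37 of the lower genes. Replicate arrays correlated at 0.996 in each PE group, and DKO with WT arrays at 0.984 to 0.987. The 2 replicates were run on different scan days, each with 1 DKO and 1 WT array. The 4 ES arrays were scanned on a further day and came from other chip lots than the PE arrays. Levels in PE and in ES cells therefore differ in scan day and lot as well as in state. With the replicate number as a block on the 4 PE arrays the counts were 277 higher and 227 lower. Without DKO PE replicate 2 the count of lower genes was 77, without WT PE replicate 1 it was 94, and without WT PE replicate 2 it was 95.

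The choice of genes by their change fixes which group is high, so the levels of the called genes are given as a description. The median level of the 206 higher genes was 8.51 in DKO PE and 6.50 in WT PE, while the median of all genes was 6.84 in DKO PE and 6.85 in WT PE. The 150 lower genes had a median of 6.49 in DKO PE and 8.31 in WT PE. Values near 4 are close to the lowest that these arrays give, so that a fold change from such a value is not exact.

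**Figure D1:**
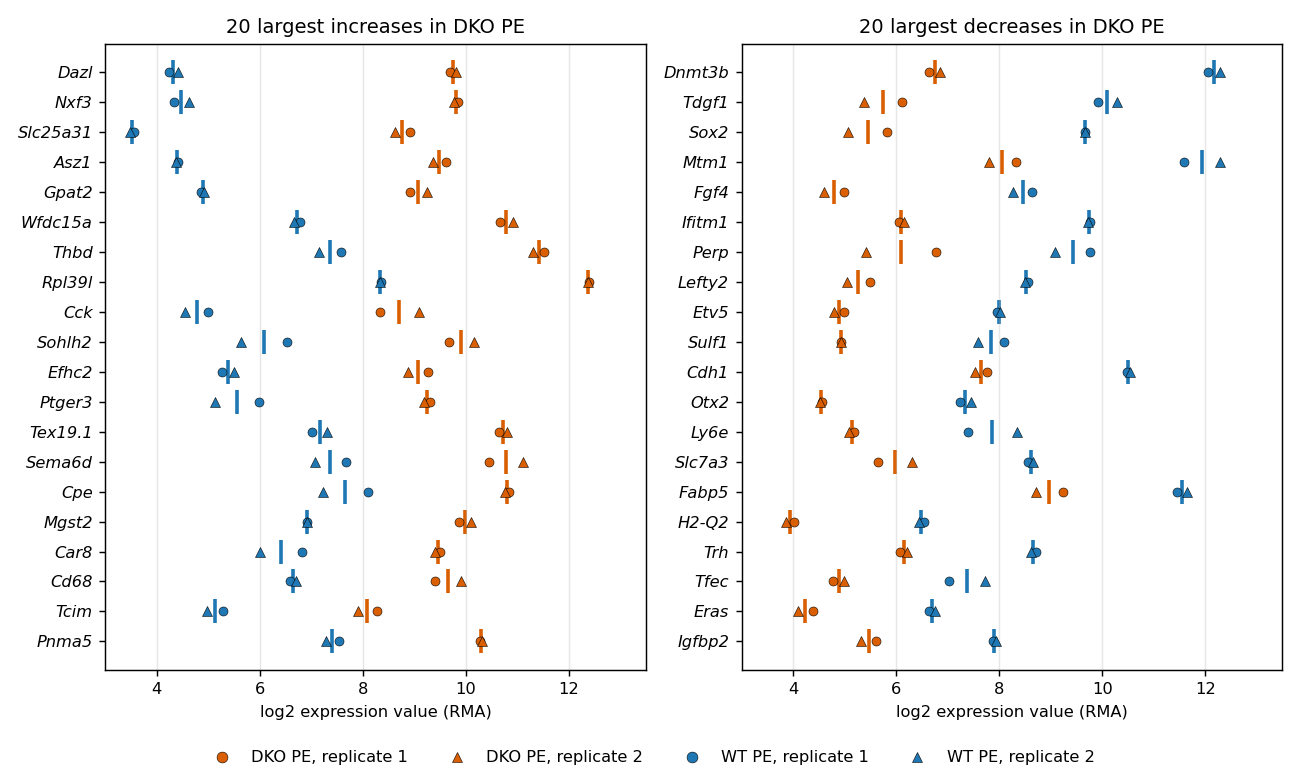
Log2 expression values (x axis) of the 20 genes with the largest increase and the 20 with the largest decrease in DKO PE (clone, locus and predicted-gene names left out), with DKO PE arrays in orange, WT PE arrays in blue, circles for replicate 1, triangles for replicate 2 and bars for group means. The 40 genes were chosen for arrays that do not overlap between the groups, and Rpl39l reaches 12.38 in DKO PE, against 8.35 in WT PE.

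Many of the largest increases were in genes of the germ line. Dazl, an RNA-binding protein needed for germ cell development, was at 9.69 and 9.81 in DKO PE and at 4.23 and 4.41 in WT PE, a change of 5.43 ± 0.45 (log2, SE, limma adjusted p = 3.97e-06). Asz1, a partner of the piRNA machinery that keeps transposons silent in germ cells, was at 9.62 and 9.36 in DKO PE and at 4.42 and 4.37 in WT PE. Slc25a31, the testis form of the mitochondrial ADP/ATP carrier, was at 8.91 and 8.61 in DKO PE, against 3.55 and 3.48 in WT PE. These 3 genes were near the bottom of the scale in WT PE and in the middle of it in DKO PE. Rpl39l, the testis copy of a ribosomal protein gene, had a clear level in WT PE too, with 12.38 and 12.36 in DKO PE and 8.35 and 8.32 in WT PE.

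CG is the dinucleotide that the Dnmt3 enzymes methylate. To show how far the number of CG near the start varied among the genes with large increases, the 250 bases before the start are given for these 4 germ line genes and for a pair of other genes among the 20 largest increases, Cck (cholecystokinin, a peptide hormone) and Mgst2 (a microsomal glutathione transferase). The sequences are those of RefSeq for the build GRCm38.p6, written 5′ to 3′ on the strand of the gene, with each CG in capitals. The windows are chr17:50293621-50293870 (minus strand) for Dazl, chr6:18109062-18109311 (minus strand) for Asz1, chr3:40708621-40708870 (plus strand) for Slc25a31, chr16:10169978-10170227 (plus strand) for Rpl39l, chr9:121495695-121495944 (minus strand) for Cck and chr3:51660929-51661178 (plus strand) for Mgst2.
Dazl: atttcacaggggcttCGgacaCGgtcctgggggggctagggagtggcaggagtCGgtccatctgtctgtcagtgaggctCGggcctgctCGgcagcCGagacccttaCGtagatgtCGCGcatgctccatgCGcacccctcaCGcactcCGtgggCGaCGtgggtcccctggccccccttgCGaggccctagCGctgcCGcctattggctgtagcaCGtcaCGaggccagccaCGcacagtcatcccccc
Asz1: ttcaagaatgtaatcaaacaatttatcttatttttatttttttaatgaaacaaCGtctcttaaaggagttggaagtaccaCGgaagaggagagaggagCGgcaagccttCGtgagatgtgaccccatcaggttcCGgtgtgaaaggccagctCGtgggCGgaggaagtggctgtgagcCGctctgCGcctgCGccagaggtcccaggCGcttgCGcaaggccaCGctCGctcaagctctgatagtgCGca
Slc25a31: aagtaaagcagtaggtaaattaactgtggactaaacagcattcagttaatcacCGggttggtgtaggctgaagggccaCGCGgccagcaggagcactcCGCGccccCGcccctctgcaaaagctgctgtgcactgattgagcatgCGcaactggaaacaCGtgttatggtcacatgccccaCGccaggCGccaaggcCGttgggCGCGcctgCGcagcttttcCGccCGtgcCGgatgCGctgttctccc
Rpl39l: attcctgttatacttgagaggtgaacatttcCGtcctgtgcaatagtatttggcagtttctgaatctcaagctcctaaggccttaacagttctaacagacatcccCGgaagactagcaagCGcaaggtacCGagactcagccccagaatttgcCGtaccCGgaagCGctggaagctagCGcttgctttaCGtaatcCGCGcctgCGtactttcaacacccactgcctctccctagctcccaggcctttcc
Cck: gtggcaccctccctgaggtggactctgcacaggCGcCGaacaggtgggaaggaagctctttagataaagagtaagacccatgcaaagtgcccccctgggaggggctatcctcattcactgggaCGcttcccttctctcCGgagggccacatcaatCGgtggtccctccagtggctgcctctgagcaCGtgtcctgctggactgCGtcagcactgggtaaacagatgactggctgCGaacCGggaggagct
Mgst2: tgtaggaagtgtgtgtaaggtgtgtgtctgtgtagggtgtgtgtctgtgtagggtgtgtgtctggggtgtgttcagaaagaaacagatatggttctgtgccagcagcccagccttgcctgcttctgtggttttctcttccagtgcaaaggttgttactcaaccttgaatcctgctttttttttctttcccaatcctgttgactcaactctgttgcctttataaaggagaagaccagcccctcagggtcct
The Dazl window held 20 CG, that of Slc25a31 18, that of Asz1 15 and that of Rpl39l 12, while that of Cck held 9 and that of Mgst2 held 0. DNA methylation was not measured on these arrays.

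Over windows of 250 bases before to 50 bases after the start, which RefSeq gave for 14369 of the 18194 genes, CG was not a mark of the higher genes as a whole. Their median was 12 CG (160 genes with a window), against 16 for the lower genes (121) and 17 for all genes. At least 10 CG were found in 59.4% of the higher, 67.8% of the lower and 67.2% of all genes. The sequences shown above were picked and do not stand for germ line and other genes at large. Outside the germ line, Ptger3 held 27 CG and Sema6d 14, while the germ line genes Tex19.2 and Syce3 held 2 and 5. The called germ line genes described next had a median of 15 CG (19 genes), and all measured members of the same lists, called or not, had 16 (75 genes). The letters CACGTG, an E-box that itself holds a CG, were in 5 of these 19 windows (26.3%), in 22.7% of the windows of all list members and in 9.04% of all windows. TTCCCGC, a core of E2F sites, was searched on both strands and was in 3 of the 19 (15.8%), in 18.7% of all list members and in 6.97% of all windows. The shares in the called genes were thus close to those in the lists as a whole, on few windows.

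Among 20 measured genes of piRNA and transposon defence, 4 were higher and 1 was lower in DKO PE, and the median change was 0.28, against -0.01 over all genes. The 4 were Asz1, Gpat2, Tex19.1 and Tex19.2. Gpat2, a mitochondrial protein needed for making piRNAs, was at 8.91 and 9.25 in DKO PE and at 4.86 and 4.92 in WT PE. Tex19.1, which restrains transposons in germ cells and placenta, was at 10.65 and 10.80 in DKO PE, against 7.01 and 7.31 in WT PE, and its neighbour Tex19.2 was at 8.02 and 8.05 in DKO PE, against 6.29 and 6.11 in WT PE. The lower member was Morc1, a silencer of transposons in male germ cells, at 5.45 and 5.13 in DKO PE and 7.23 and 7.22 in WT PE. Its call was lost without any 1 of the 4 PE arrays. Leaving out 1 array makes the comparison less precise for every gene. A call lost in this way, here and below, does not show that 1 array carried the change. Mael, a further piRNA factor, was at 4.24 and 4.40 in DKO PE and at 4.03 and 3.91 in WT PE (adjusted p = 0.535), although it was higher in DKO ES cells, at 8.82 and 8.57, than in WT ES cells, at 7.58 and 7.21.

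Of 36 measured germ cell and meiosis genes, 11 were higher and 0 were lower, with a median change of 0.10. They covered several steps of germ cell life. Sohlh2, a transcription factor of early spermatogonia and oocytes, was at 9.66 and 10.16 in DKO PE and at 6.54 and 5.63 in WT PE. Stra8, the retinoic acid induced gene that starts meiosis, was at 8.25 and 8.07 in DKO PE and at 5.98 and 6.27 in WT PE. Members of the synaptonemal complex, which holds homologous chromosomes together, changed less, with Tex12 at 6.36 and 6.04 in DKO PE and 4.51 and 4.27 in WT PE, and Syce1 at 6.18 and 6.85 in DKO PE and 5.07 and 5.24 in WT PE. Sycp3 and Syce3 of the same complex were also higher, by 1.38 and 1.01, as were Stk31, Taf7l, Tex11 and Ccnb1ip1, by 1.15 to 1.70. The calls of Sycp3, Syce3, Tex11 and Ccnb1ip1 were each lost without at least 2 of the 4 PE arrays in turn. Other defining members stayed flat, with the meiotic recombinase Dmc1 at 4.43 and 4.54 in DKO PE and 4.67 and 4.61 in WT PE, and Sycp1 at 3.68 and 3.61 in DKO PE and 3.64 and 3.58 in WT PE.

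Testis paralogs of housekeeping genes rose in 5 of 21 cases and fell in 0, with a median change of 0.15. Besides Slc25a31 and Rpl39l they were Nxf3, a relative of the mRNA export factors, Cox7b2, a subunit form of cytochrome c oxidase, and Pdha2, the testis form of the pyruvate dehydrogenase subunit. Nxf3 was at 9.85 and 9.77 in DKO PE and at 4.33 and 4.63 in WT PE. Cox7b2 was at 5.90 and 6.42 in DKO PE and at 4.05 and 3.94 in WT PE. Pdha2 was at 5.91 and 5.94 in DKO PE and at 4.56 and 4.07 in WT PE, and its difference was smaller in PE than in ES cells by 1.59 (adjusted p = 0.011). Pgk2, the testis form of phosphoglycerate kinase, was at 4.22 and 4.26 in DKO PE and 4.61 and 4.31 in WT PE, so the list did not move as a whole.

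On the X chromosome, 2 of 9 measured Rhox, Mage and related reproductive genes were higher and 0 were lower. Rhox13, a homeobox gene of germ cells, was at 7.87 and 7.86 in DKO PE and 5.84 and 5.30 in WT PE, and Rhox9 at 8.80 and 9.77 in DKO PE and 6.88 and 6.83 in WT PE. The call of Rhox13 was lost without WT PE replicate 2 and that of Rhox9 without any of 3 of the 4 arrays. Rhox6 stood at 10.57 and 10.93 in DKO PE and 8.45 and 8.61 in WT PE and Rhox5 at 13.40 and 13.65 in DKO PE and 12.21 and 12.24 in WT PE, with adjusted p-values of 0.199 and 0.377. Both Rhox6 and Rhox5 passed with only the 4 PE arrays in the fit. Pnma5, another X-linked gene, was at 10.28 and 10.32 in DKO PE and at 7.54 and 7.27 in WT PE. Efhc2, an X-linked gene with an EF-hand domain, was at 9.27 and 8.87 in DKO PE and at 5.27 and 5.50 in WT PE.

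Another set of large increases was not germ line. Thbd, thrombomodulin, the thrombin receptor at the surface of parietal endoderm, was at 11.51 and 11.31 in DKO PE and at 7.57 and 7.15 in WT PE. Cck was at 8.33 and 9.08 in DKO PE and at 4.99 and 4.55 in WT PE. Sema6d, a transmembrane semaphorin, was at 10.45 and 11.10 in DKO PE and at 7.68 and 7.06 in WT PE. Cpe, an enzyme that trims peptide hormones, was higher by 3.15, Mgst2 by 3.06, Car8, a carbonic anhydrase relative, by 3.05, Cd68, a lysosomal membrane protein best known from macrophages, by 3.02, and Tcim, an intracellular regulator of growth signalling, by 2.97. Wfdc15a, a gene with a protease inhibitor domain, was at 10.66 and 10.91 in DKO PE and at 6.79 and 6.66 in WT PE. Ptger3, a prostaglandin E receptor, was at 9.30 and 9.18 in DKO PE and at 5.97 and 5.14 in WT PE on the probe set used. Ptger3 (-0.01) and Car8 (0.35) had no called change once probe sets whose names mark them as reading several transcripts were left out. These values come from another probe set of the same gene, so the probe sets of each gene disagreed.

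In contrast to most germ line genes above, these genes were not called between the genotypes in ES cells, apart from Wfdc15a, which was higher in DKO ES cells by 1.35. Thbd was at 4.94 and 4.70 in DKO ES and at 4.70 and 4.41 in WT ES cells, and Cck at 4.45 and 4.35 in DKO ES and at 4.11 and 4.50 in WT ES cells. Both were higher in DKO PE than in any of the other 3 groups, and the genotype difference in PE exceeded that in ES cells by 3.79 for Thbd and 3.84 for Cck (limma adjusted p = 0.00321 and 3.17e-05). Rpl39l took the other course, being high in ES cells of both genotypes, at 11.59 and 11.51 in DKO ES and 10.97 and 10.27 in WT ES cells, and low only in WT PE.

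**Figure D2:**
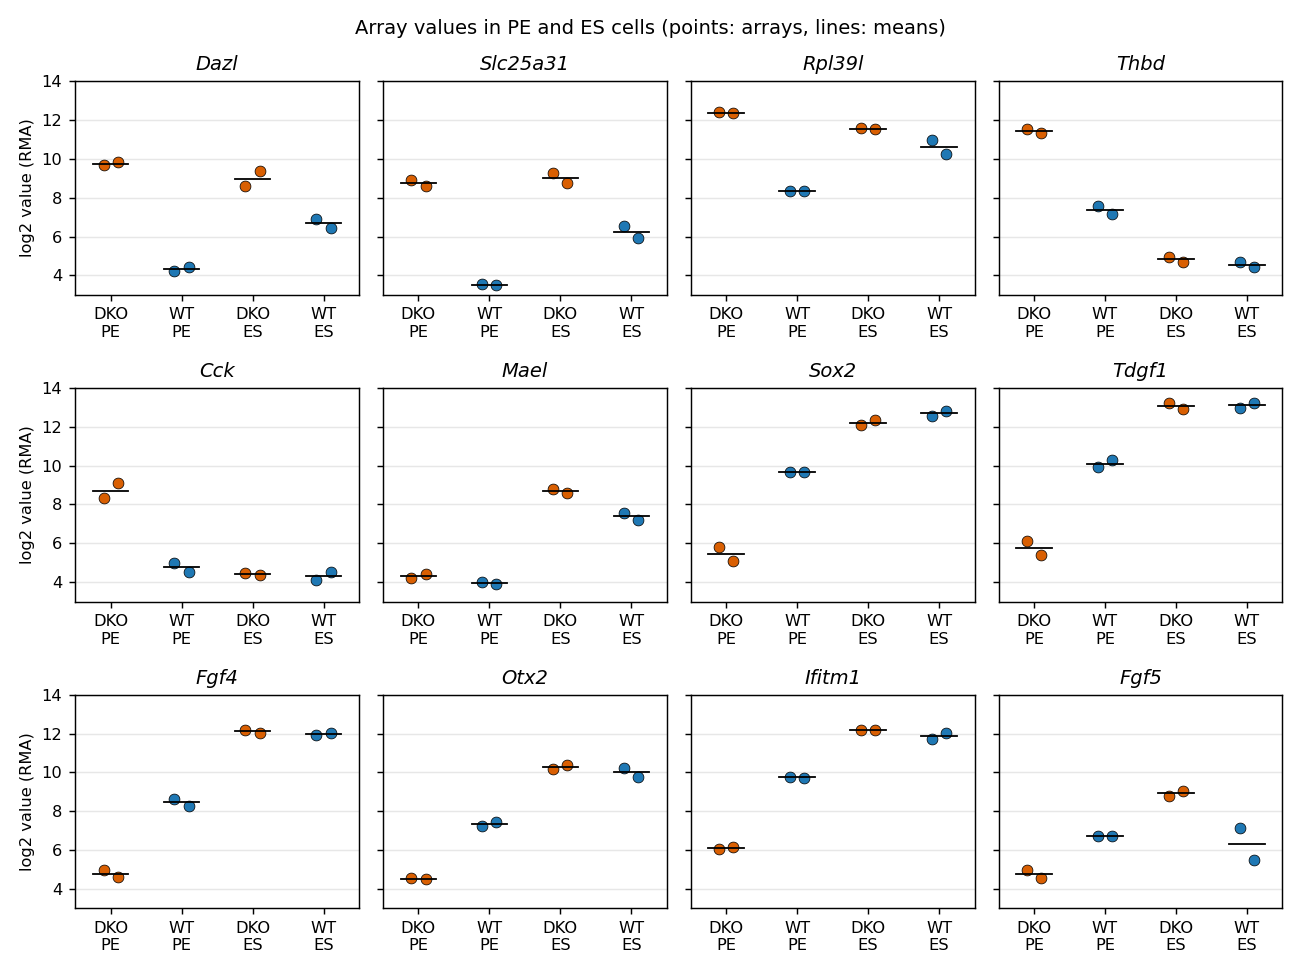
Log2 expression values (y axis) of 12 genes in DKO PE, WT PE, DKO ES and WT ES cells, with points for arrays and lines for group means. Dazl, Slc25a31 and Rpl39l are lower in WT PE than in WT ES cells and stay near the ES level in DKO PE, Thbd and Cck are highest in DKO PE, and Sox2, Tdgf1, Fgf4, Otx2 and Ifitm1 differ by at most 0.49 between the ES groups and are lowest in DKO PE.

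Many genes of the ES cell program were lower in DKO PE. Of 27 measured pluripotency genes, 10 were lower and 0 were higher, and the median change was -0.92. Sox2, a core pluripotency factor, was at 5.82 and 5.07 in DKO PE and at 9.67 and 9.66 in WT PE. Its partner Pou5f1 was at 7.10 and 6.94 in DKO PE and at 9.34 and 9.45 in WT PE, and Nanog was at 4.78 and 4.87 in DKO PE and at 7.53 and 6.75 in WT PE. For all 3 the PE difference exceeded the ES difference (adjusted p = 0.043 for Sox2, 0.00561 for Pou5f1 and 0.0417 for Nanog). The call of Nanog was lost without WT PE replicate 1. Nr0b1, an orphan nuclear receptor of ES cells, had a change of -2.31, Utf1, an ES cell chromatin factor, of -1.23, Eras, a constitutively active Ras of ES cells, of -2.46, and Tbx3, a T-box factor, of -1.05. The calls of Utf1, Eras and Tbx3 were each lost without at least 2 of the 4 PE arrays in turn.

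Set against ES cells of the same genotype, these genes were low in both PE groups and lower in DKO PE. The ES arrays were scanned on another day than any PE array, so state and scan day cannot be told apart in these percentages. The linear level of Sox2 was 0.92% of the ES level in DKO PE and 12.2% in WT PE, that of Pou5f1 was 3.56% in DKO PE and 13.8% in WT PE, and that of Nanog 0.996% in DKO PE and 5.87% in WT PE. Not every gene of the list behaved so. Dppa5a, an ES cell RNA-binding protein, was at 94.9% of its ES level in DKO PE and 86.5% in WT PE, and Klf4 was above its ES level in both, at 385.4% in DKO PE and 259.6% in WT PE. Fewer cells with these transcripts and less of them per cell cannot be told apart in such bulk samples, and the part of remaining ES cells in the difference was not tested.

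The Nodal pathway, which keeps the epiblast pluripotent and patterns it, had 5 of 22 genes lower and 0 higher, with a median change of -0.26. All of the 5 were ligands or their partners. Tdgf1, the Nodal co-receptor, was at 6.12 and 5.37 in DKO PE and at 9.91 and 10.28 in WT PE. Nodal itself was at 7.15 and 6.78 in DKO PE and at 8.90 and 8.90 in WT PE. Lefty2, a Nodal inhibitor that Nodal induces, was at 5.49 and 5.05 in DKO PE and at 8.55 and 8.51 in WT PE, and Lefty1 fell by 1.40 on the log2 scale, a call lost without any of 3 of the 4 arrays. The ligand Gdf3 fell by 1.83. Tdgf1, Gdf3 and the pluripotency list share members, so these counts are not separate evidence.

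FGF4 from epiblast cells acts through FGF receptors to favour the endoderm fate, and 5 of 25 genes of this pathway were lower in DKO PE and 1 was higher. Fgf4 was at 4.99 and 4.59 in DKO PE and at 8.64 and 8.28 in WT PE. Etv5, a transcription factor induced by FGF signals, was at 4.99 and 4.79 in DKO PE and 7.96 and 8.02 in WT PE, and Dusp4, a phosphatase that ends ERK signals, was at 7.80 and 6.93 in DKO PE and 9.80 and 9.28 in WT PE. Spry1, a feedback inhibitor, was at 6.71 and 6.67 in DKO PE and 7.67 and 7.55 in WT PE, under 2-fold and with an adjusted p of 0.0505. Fgf5 ran in opposite directions in the 2 states, being lower in DKO PE, with 4.98 and 4.56 against 6.75 and 6.74 in WT PE, and higher in DKO ES cells, with 8.78 and 9.05 against 7.12 and 5.50 in WT ES cells. The PE difference of Fgf5 lay 4.57 below its ES difference (adjusted p = 0.00312). Fgfr1 fell by 1.13 and the adaptor Grb2 was higher by 1.18, and the PE calls of Fgf5, Fgfr1 and Grb2 were lost without any 1 of the 4 PE arrays.

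Among 24 BMP genes 2 were lower and 1 was higher, against 0.824% lower and 1.13% higher of all genes. Id3, a direct BMP target that blocks bHLH factors, was at 6.62 and 6.18 in DKO PE and 8.24 and 8.71 in WT PE. The related Id1 was at 7.33 and 6.80 in DKO PE and 8.67 and 8.90 in WT PE, without passing (adjusted p = 0.0568). The ligand Bmp6 fell by 1.67 and the antagonist Nog was higher by 1.12, with calls lost without all 4 arrays in turn for Bmp6 and without 2 of them for Nog. Fst, which binds activin and BMPs, was at 13.44 and 13.61 in DKO PE and 12.23 and 12.26 in WT PE (adjusted p = 0.0587). In the Wnt pathway 0 of 34 genes were called in the fit to all arrays. Its largest changes were those of the antagonist Frzb, at 8.65 and 8.67 in DKO PE and 7.45 and 6.81 in WT PE (adjusted p = 0.0691), and of Wnt4, at 8.001 and 7.52 in DKO PE and 9.10 and 8.74 in WT PE (adjusted p = 0.218). Fst, Frzb, Id1 and Wnt4 all passed with only the 4 PE arrays in the fit.

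**Figure D3:**
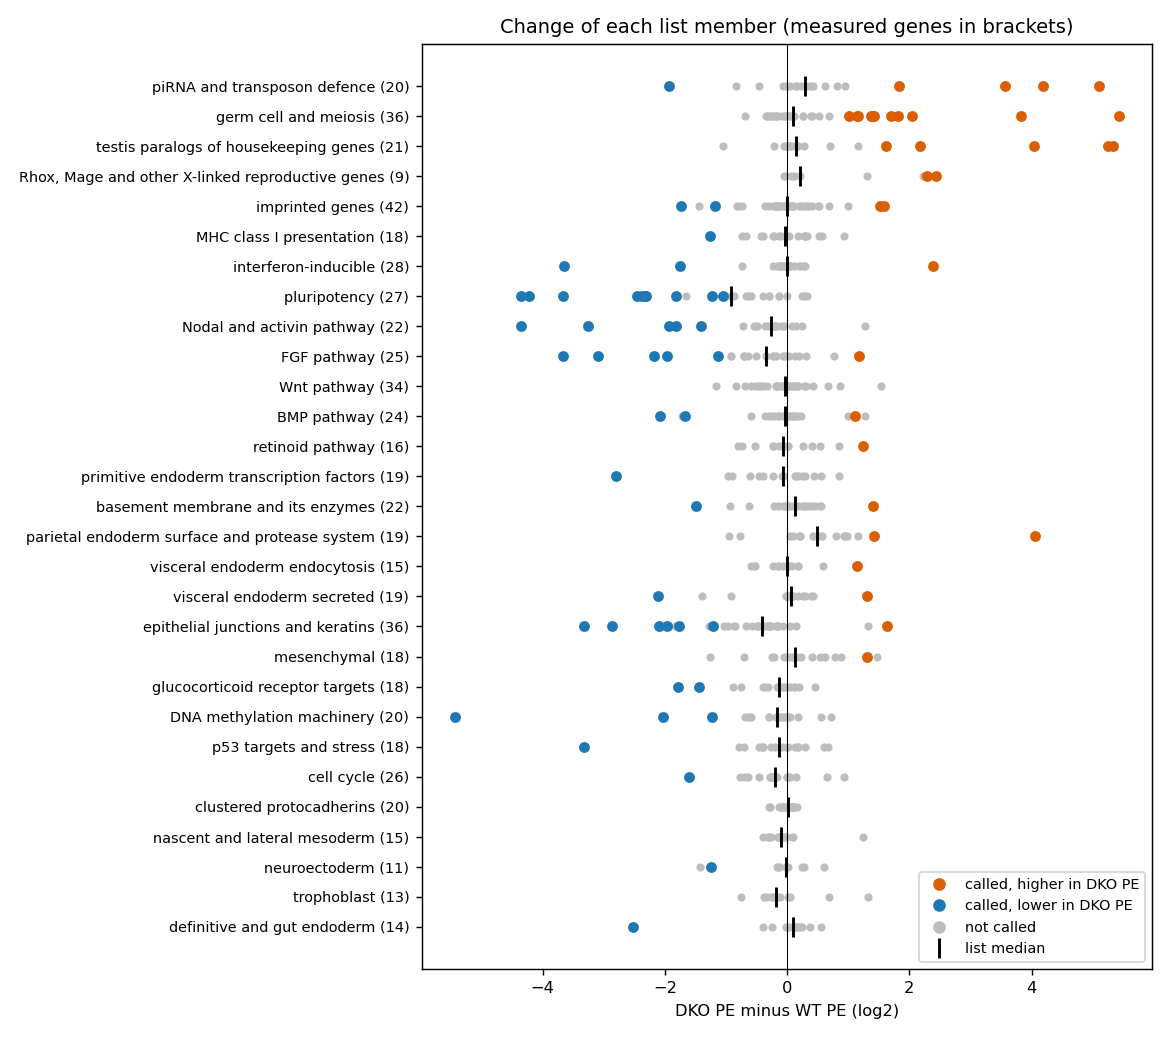
Change in DKO PE against WT PE (log2, x axis) of every measured member of 29 gene lists, with called genes in orange (higher) or blue (lower), other genes in grey and the list median as a black bar. Called increases lie mostly in the germ line lists at the top and called decreases mostly in the pluripotency, Nodal, FGF and epithelial lists, while the median of most other lists is near 0.

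The transcription factors of the lineage itself differed little. Of 19 PE transcription factors 1 was lower and 0 were higher. Gata6 was at 11.91 and 12.22 in DKO PE and 11.15 and 11.27 in WT PE (adjusted p = 0.128), Sox17 at 13.04 and 13.03 in DKO PE and 12.91 and 12.80 in WT PE, and Foxa2 at 10.54 and 10.58 in DKO PE and 10.14 and 10.10 in WT PE. The lower gene was Otx2, a homeobox factor of both epiblast and anterior visceral endoderm, at 4.56 and 4.51 in DKO PE and 7.24 and 7.44 in WT PE. Otx2 was equally high in ES cells, at 10.20 and 10.38 in DKO ES and 10.23 and 9.76 in WT ES cells, and its PE difference exceeded the ES difference (adjusted p = 0.0117).

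Basement membrane genes, the main products of parietal endoderm, were at very high levels in both groups, with 1 of 22 higher and 1 lower. Of all genes 1.13% were higher and 0.824% were lower. Lama1 was at 13.83 and 14.003 in DKO PE and 13.43 and 13.499 in WT PE, and Col4a1 at 14.50 and 14.43 in DKO PE and 14.51 and 14.38 in WT PE. Fn1, fibronectin, was lower, at 8.25 and 8.54 in DKO PE and 9.84 and 9.95 in WT PE. In ES cells Fn1 was higher still, at 11.59 and 11.88 in DKO ES and 11.84 and 12.30 in WT ES cells. P4ha2, a collagen prolyl hydroxylase on chromosome 11, was higher by 1.41, and its call was lost without any 1 of the 4 arrays. In the list of parietal surface and protease genes 17 of 19 members had a change above 0, against 8697 of all 18194 genes, and the median was 0.50. Only 2 were called, Thbd and Serpinb6b, an intracellular serpin whose call was lost without any 1 of the 4 arrays. F3, tissue factor, was at 12.44 and 12.27 in DKO PE and 11.39 and 11.02 in WT PE (adjusted p = 0.0891). The same list had a median change of 0.44 in ES cells, where 0 members were called.

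Visceral endoderm genes went both ways. Of 15 genes of endocytosis 1 was higher, S100g, a calcium-binding protein, at 7.78 and 7.70 in DKO PE and 6.37 and 6.83 in WT PE, a call lost without WT PE replicate 1. The uptake receptors Lrp2, at 11.11 and 11.83 in DKO PE and 10.76 and 11.02 in WT PE, and Cubn, at 11.48 and 12.06 in DKO PE and 11.91 and 12.67 in WT PE, were not called, and the arrays of Cubn overlapped. Among 19 secreted products, Afp, alpha-fetoprotein, was higher, at 6.49 and 6.59 in DKO PE and 5.32 and 5.16 in WT PE. Apoe, an apolipoprotein, was lower, at 9.79 and 9.93 in DKO PE and 11.99 and 11.95 in WT PE, although without any 1 of the 4 arrays the call was lost. It was also high in ES cells, at 11.10 and 11.15 in DKO ES and 11.17 and 12.14 in WT ES cells, so it does not mark visceral endoderm here. Mttp, which loads lipid onto apolipoprotein B, was at 7.17 and 7.61 in DKO PE and 8.16 and 8.44 in WT PE, significant (adjusted p = 0.00491) but under 2-fold.

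Several epithelial genes were lower. Of 36 measured genes of epithelial junctions and keratins, 6 were lower and 1 was higher. A change above 0 was found in 5, against 8697 of all 18194 genes, and the median was -0.41. Perp, a desmosome protein that p53 induces, was at 6.78 and 5.41 in DKO PE and 9.76 and 9.09 in WT PE. Dsp, desmoplakin, was at 9.65 and 8.90 in DKO PE and 11.63 and 11.12 in WT PE, and Ap1m2, an adaptor for basolateral sorting, at 7.99 and 7.91 in DKO PE and 10.04 and 9.78 in WT PE. Cdh1, E-cadherin, was at 7.76 and 7.53 in DKO PE and 10.48 and 10.53 in WT PE, with an adjusted p of 0.0464, and lost its call without any 1 of the 4 arrays. Esrp1, an epithelial splicing regulator, and Spint2, a protease inhibitor, had changes of -1.76 and -1.21. The calls of Perp, Esrp1 and Spint2 were each lost without at least 2 arrays in turn. Grhl2, a transcription factor that promotes epithelial genes, was the exception, at 8.78 and 8.82 in DKO PE and 7.16 and 7.15 in WT PE. Its change was 0.42 and not called in the mean of its probe sets. All 6 lower genes also had high levels in ES cells. Over the 4 ES arrays Cdh1 was at 11.77 to 12.22, Spint2 at 11.08 to 11.20 and Esrp1 at 10.68 to 10.85. Dsp was at 9.49 to 10.63 there, Perp at 9.22 to 9.88 and Ap1m2 at 8.96 to 10.19. Whether these decreases are separate from those of the ES cell program was not tested.

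Mesenchymal genes did not mirror the epithelial decreases. Of 18, Vim, vimentin, was higher, at 11.87 and 12.24 in DKO PE and 10.63 and 10.86 in WT PE, and 0 were lower. Leaving out either DKO PE replicate 2 or WT PE replicate 1 ended its call. N-cadherin (Cdh2) was at 6.603 and 5.42 in DKO PE and 7.70 and 6.84 in WT PE (adjusted p = 0.132) and passed with the replicate number or the scan day as a block.

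Further decreases among the 20 largest fell outside these lists. Mtm1, the lipid phosphatase myotubularin, was at 8.32 and 7.80 in DKO PE and 11.59 and 12.29 in WT PE. Sulf1, which edits heparan sulfate, was at 4.92 and 4.94 in DKO PE and 8.09 and 7.59 in WT PE, and Fabp5, a fatty acid carrier, at 9.23 and 8.71 in DKO PE and 11.45 and 11.64 in WT PE. In all 3 genes the WT PE arrays lay below or within the range of the 4 ES arrays, which for Fabp5 was 11.63 to 12.16, and the DKO PE arrays lay further below it. Igfbp2, an IGF binding protein, had a change of -2.44, Slc7a3, a cationic amino acid transporter, of -2.64, a call lost without any of 3 of the 4 arrays, and Trh, thyrotropin-releasing hormone, of -2.51. Tfec, a relative of Mitf, was at 4.78 and 4.99 in DKO PE and 7.03 and 7.72 in WT PE. In ES cells Tfec was at 4.67 and 3.88 in DKO and 4.35 and 4.09 in WT, so that WT PE stood apart from the other 3 groups. Ly6e, a surface protein, fell by 2.72 on the probe set used. It had a change of 0.18 once probe sets marked as reading several transcripts were left out.

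Imprinted genes, whose methylation is set in the germ line, were divided, with 2 of 42 higher and 2 lower and a median change of -0.0089. Of all genes 1.13% were higher and 0.824% were lower. Plagl1, an imprinted zinc finger gene, was at 10.45 and 10.47 in DKO PE and 8.93 and 8.84 in WT PE, and Peg12 at 6.41 and 6.01 in DKO PE and 4.90 and 4.50 in WT PE. Mest was at 6.61 and 6.52 in DKO PE and 8.25 and 8.37 in WT PE, and Zdbf2 at 7.61 and 7.69 in DKO PE and 8.86 and 8.79 in WT PE. Igf2 was at 8.62 and 9.10 in DKO PE and 10.18 and 10.42 in WT PE (adjusted p = 0.277). The calls of Plagl1, Peg12 and Mest were each lost without at least 2 of the 4 arrays in turn. Plagl1 had a change of 0.05 without the probe sets marked as reading several transcripts.

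Interferon-inducible genes and MHC class I genes were mostly flat. Of 28 interferon-inducible genes, 1 was higher and 2 were lower. Ifitm1 and Ifitm2, membrane proteins that block virus entry and are also high in ES cells, were lower. Ifitm1 was at 6.05 and 6.15 in DKO PE and 9.76 and 9.73 in WT PE, and Ifitm2 at 6.64 and 5.84 in DKO PE and 8.06 and 7.93 in WT PE. Xaf1, a pro-apoptotic interferon target on chromosome 11, was higher, at 9.83 and 9.30 in DKO PE and 7.23 and 7.12 in WT PE. Among 18 genes of MHC class I presentation, H2-Q10 fell by 1.27, a call lost without any 1 of the 4 arrays, and 0 were higher. H2-Q2, a class Ib gene outside that list, was at 4.02 and 3.87 in DKO PE and 6.54 and 6.44 in WT PE, and its call was lost without DKO PE replicate 2. MHC class I genes are near-identical to each other, so a probe set may read several of them. The same MHC list had a median difference of 0.75 in ES cells and of -0.04 in PE.

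Dex acts on the endogenous glucocorticoid receptor as well as on Gata4GR, and 2 of 18 glucocorticoid targets were lower in DKO PE while 0 were higher. Of all genes 0.824% were lower and 1.13% were higher. Mt2, a metallothionein, was at 9.98 and 10.42 in DKO PE and 11.86 and 12.12 in WT PE, and the kinase gene Sgk1 at 10.67 and 10.40 in DKO PE and 11.95 and 12.01 in WT PE. The classical targets Fkbp5 and Tsc22d3 were not called, with Fkbp5 at 7.999 and 8.29 in DKO PE and 8.39 and 8.55 in WT PE. Mt2, Sgk1 and Fkbp5 were all higher in ES cells, which had no Dex. Mt2 was at 12.40 and 12.97 in DKO ES and 12.40 and 13.17 in WT ES cells. Sgk1 was at 12.20 to 12.42 and Fkbp5 at 11.02 to 11.24 over the ES arrays. The series held no PE without Dex, so the response of PE to Dex could not be measured and was not tested. The call of Mt2 was lost when either DKO PE replicate 1 or WT PE replicate 2 was left out.

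Of 20 genes of the DNA methylation machinery 3 were lower, the deleted Dnmt3a and Dnmt3b and Tet1, which oxidises methylcytosine, at 7.73 and 8.29 in DKO PE and 9.05 and 9.44 in WT PE. For this list and those that follow, the shares over all genes were 0.824% lower and 1.13% higher. The maintenance enzyme Dnmt1 was at 10.41 and 10.99 in DKO PE and 10.84 and 11.15 in WT PE and was not called. In cell cycle genes 1 of 26 was lower, the cyclin gene Ccnd1 with a change of -1.61, and the proliferation marker Mki67 was at 11.88 and 12.17 in DKO PE and 12.17 and 12.46 in WT PE. The calls of Tet1 and Ccnd1 were lost without at least 2 of the arrays in turn. Lists of clustered protocadherins, nascent and lateral mesoderm and trophoblast had 0 called genes of 20, 15 and 13, and those of neuroectoderm and definitive and gut endoderm had 1 lower gene each, Zic1 of 11 and Trh of 14. The calls of Zic1 and Stra6 were each lost when either DKO PE replicate 2 or WT PE replicate 1 was left out. Stra6 is the retinol transport receptor and was the 1 called gene of 16 in the retinoid pathway, higher at 7.69 and 8.09 in DKO PE and 6.26 and 7.04 in WT PE.

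Part of the difference was there before Gata4 was activated. In DKO ES cells 203 genes (1.12%) were higher and 49 (0.269%) were lower than in WT ES cells. The 2 comparisons share no array. Of the genes higher in DKO PE, 42 were also higher in DKO ES cells, which was 20.4% of the PE genes and 20.7% of the ES genes, and 166 of 206 had an ES difference above 0. Of the genes lower in DKO PE, 5 were also lower in DKO ES cells, which was 3.33% of the PE genes and 10.2% of the ES genes, and 97 of 150 had an ES difference below 0. A further 4 genes were called in opposite directions, among them Fgf5. The median ES difference was 0.34 for the genes higher in DKO PE and -0.18 for the lower ones. Over all genes it was -0.0047, so 0 lay close to the middle of all genes. Across genes the 2 differences correlated at 0.30 (Pearson's r, a description, since genes are not independent replicates).

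The genotype difference was tested for a change between the states. It differed between PE and ES cells in 247 genes (1.36%). These took in 75 of the 206 genes higher in DKO PE, whose difference was larger in PE, and 57 of the 150 lower genes, whose difference reached further below 0 in PE. Both sets were chosen by their PE difference, which is part of the value tested, so these shares are raised by the choice. With the replicate number as a block within each state the count was 666, which held all 247, and without single ES or PE arrays it was 132 to 204. Of the germ line genes, Dazl grew by 3.12 (adjusted p = 0.0227), Asz1 by 2.28 (adjusted p = 0.00733) and Slc25a31 by 2.44 (adjusted p = 0.017), whereas Nxf3 (0.84, adjusted p = 0.773), Pnma5 (-0.15, adjusted p = 0.991) and Tex19.2 (-0.06, adjusted p = 0.997) did not pass.

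**Figure D4:**
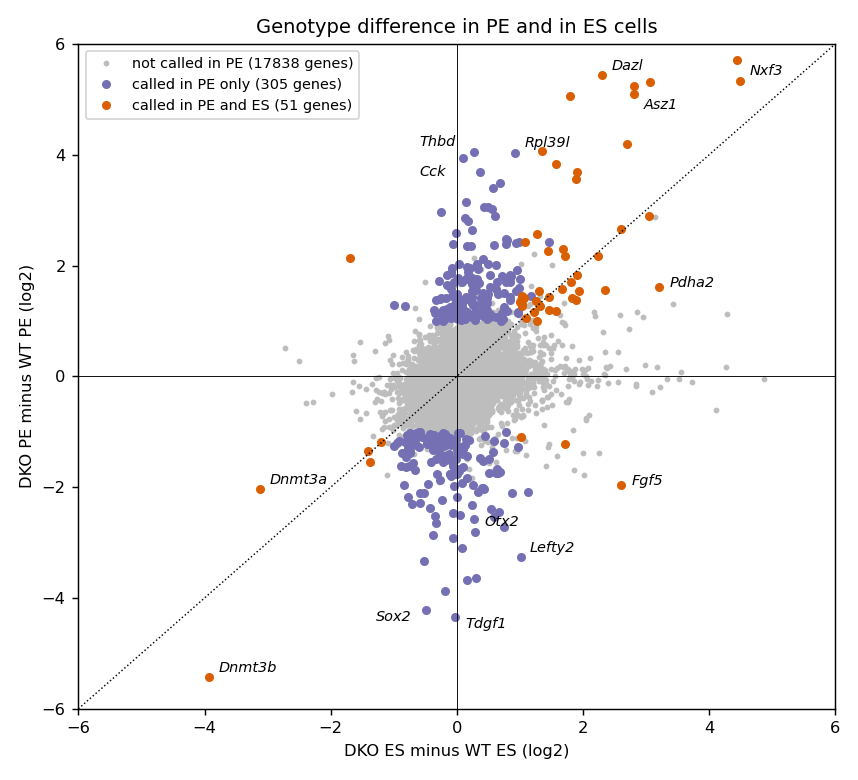
Genotype difference in PE (y axis, DKO PE minus WT PE, log2) against that in ES cells (x axis, DKO ES minus WT ES, log2) for 18194 genes, with 305 genes called in PE only in purple, 51 called in both states in orange and the others in grey. Dazl, Asz1 and Nxf3 are high in both, Thbd and Cck are high in PE near an ES difference of 0, Sox2 and Tdgf1 are low in PE only, and Fgf5 lies at the lower right.

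Where the called genes lie was not even over the chromosomes. Chromosome 11 held 32 higher and 3 lower genes of 1443 tested (2.22% and 0.208%), and chromosome 8 held 5 higher and 26 lower genes of 932 (0.536% and 2.79%). The X chromosome held 21 higher and 13 lower genes of 617 (3.40% and 2.11%). The Y chromosome held 2 higher and 0 lower genes, but only 9 were tested there. On chromosomes 8 and 11, unlike on the X chromosome, most genes were shifted by a small amount in one direction. Taking the genes above the median level, the median change was 0.32 over 777 genes of chromosome 11, of which 83.4% were above 0, and -0.21 over 510 genes of chromosome 8. The medians of the other autosomes and of the X chromosome lay between -0.10 and -0.01. The shift was in each pair of arrays of the same scan day, at 0.28 in replicate 1 and 0.32 in replicate 2 for chromosome 11, and at -0.20 in replicate 1 and -0.23 in replicate 2 for chromosome 8.

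Each autosome and the X chromosome was then divided in gene order into 12 stretches of equal gene number, a division chosen after the shift had been seen. On chromosome 11 all 12 stretches had medians of 0.24 to 0.39. On chromosome 8 the first stretch, from Insr to Tmco3, was at -0.31, and the last 4, from Usb1 to the end, were at -0.45, -0.52, -0.53 and -0.34, while the 7 between them lay between -0.17 and 0.02. On the other chromosomes all 216 stretches had medians between -0.19 and 0.18. The last 4 stretches of chromosome 8 held 17 of its 26 lower genes, 5.47% of the 311 tested there. Their median over 172 genes was -0.47, or 0.723 of the WT level, and that of chromosome 11 was 1.24 times the WT level.

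Cdh1 lies in that part of chromosome 8, as do Nfat5, a transcription factor of osmotic stress, which fell by 1.45, Mvd, an enzyme of cholesterol synthesis (-1.33), Cyba, a subunit of NADPH oxidase (-1.30), Nqo1, a quinone reductase (-1.04), and Terf2, a telomere protein (-1.01). These were chosen after their values were seen. On chromosome 11 lie Tex19.1, Tex19.2, Cd68, Xaf1, Grb2, Nog and P4ha2 of the genes above. With each array centred on the median of its stretch, chosen after the data were seen, 16 of the 32 higher genes of chromosome 11 and 9 of the 26 lower genes of chromosome 8 kept their call. Over all genes 205 were then higher and 130 lower, 181 and 119 of them as before. Tex19.1, Tex19.2, Cd68 and Xaf1 kept their calls, and Cdh1 (-2.28, adjusted p = 0.133), Grb2, Nog and P4ha2 did not.

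**Figure D5:**
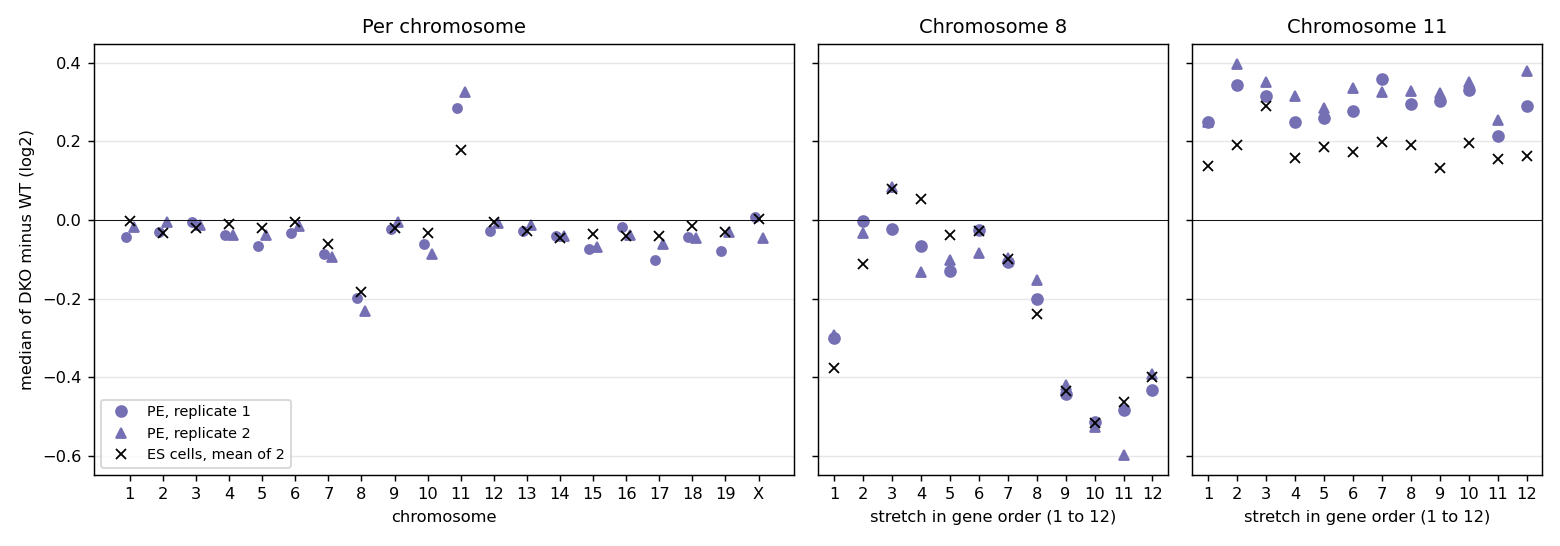
Median genotype difference (DKO minus WT, log2, y axis) of genes above the median level for each autosome and the X chromosome (left), and for 12 stretches in gene order along chromosomes 8 (middle) and 11 (right). Circles and triangles are the PE arrays of replicates 1 and 2 and crosses the mean of ES cells. Chromosome 11 is above 0 along its whole length, and chromosome 8 is below 0 in the first and the last 4 stretches.

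Other arrays of the series held the same shifts, apart from chromosome 11 in a pair of parental lines. In ES cells the median difference was 0.18 on chromosome 11 and -0.18 on chromosome 8. The sorted Flk1+ mesoderm arrays of replicate 2 came from the same transgenic clones, while those of replicate 1 came from the parental J1 and 16aabb lines, without the transgene. Between the clones chromosome 11 differed by 0.40, and between the parental lines by -0.01. The last 4 stretches of chromosome 8 differed by -0.43 between the clones and by -0.27 between the parental lines. Between the transgenic and the parental DKO arrays chromosome 11 differed by 0.30, and between the transgenic and the parental WT arrays by -0.07. There was 1 array per line, and the 2 pairs were scanned on different days. The number of chromosome copies was not measured.

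The parental lines gave a further view of the genes called in PE, in another cell type and with 1 array each. Of the 206 genes higher in DKO PE, 23 (11.2%) were at least 2-fold higher in parental DKO than in parental WT mesoderm, against 0.863% of all genes, and 14 (6.80%) were at least 2-fold lower, against 1.88% of all genes. Their median there was 0.11, with 60.2% above 0. Of the 150 lower genes 21 (14%) were at least 2-fold lower and 1 (0.667%) at least 2-fold higher, with a median of -0.31. Of the 42 genes higher in both DKO PE and DKO ES cells, 36 were above 0 there. Nxf3 was at 8.26 in parental DKO and at 4.02 in parental WT mesoderm, Rpl39l at 9.81 in DKO and 6.57 in WT, and Slc25a31 at 6.27 in DKO and 3.44 in WT, while Dazl was at 4.15 in DKO and 4.01 in WT. Of the 32 higher genes of chromosome 11, 15 were above 0 in the parental pair (46.9%, against 50.1% of all genes), and of the 17 lower genes at the end of chromosome 8, 16 were below 0.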

How the data were processed

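RNA of each sample, from 50 ng total RNA labelled in 2 cycles, was hybridised to 1 Affymetrix MOE430v2 array. The log2 values were deposited by the authors after RMA (background correction, quantile normalization and summary per probe set; version not stated, nor whether all 20 arrays were summarized together), and deposited scanner settings gave the scan day. Of 45101 probe sets, 34958 had 1 gene symbol, 932 several and 9211 none in the platform annotation. No detection calls were used, levels were not compared between genes, and the number of arrays limits precision.

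limma 3.58.1 (R 4.3.3) was fitted with 1 mean per group on all 20 arrays (10 residual degrees of freedom). The spread behind each p-value thus came from all groups, and each Flk1+ group joined 1 parental and 1 transgenic line. A run on simulated data had independent noise, without the scan-day pairing and chromosome shifts found here, so it is no support for the calls. The study's methods name SAM, which was not run, since 2 against 2 arrays have too few distinct splits. Members and gene lists were chosen with earlier results of these data known. Named genes were the 20 largest increases and decreases among called genes whose arrays did not overlap, leaving out clone and predicted-gene names and items not reported here, up to 8 members of each list, and Dnmt3a, Dnmt3b and Gata4, with a few marker genes added. PE replicates 1 and 2 were scanned on different days, each with 1 DKO and 1 WT array, so the number marks the scan day and pairs the arrays (correlation of same-numbered deviations 0.36, 2 pairs). Alternatives were other array sets, blocks, filters, probe sets, thresholds and priors, each array left out in turn, and, chosen after seeing the data, centring on chromosome stretches and leaving out chromosomes 8 and 11. Gene order came from RefSeq (GRCm38.p6), used for names and order only apart from the promoter sequences. The labels name separate biological replicates but not what separates them, beyond independent experiments stated in the methods.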

Additional observations from a re-analysis of the deposited data

Results flagged for a closer look

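The genotype difference in PE (DKO PE minus WT PE) differed from that in ES cells (DKO ES minus WT ES) by limma's test of the difference itself in 50 of the 96 called genes that the text names. Of all 18194 genes 247 (1.36%) passed. The 96 were chosen by their PE difference, which is part of the value tested. The count of 50 is thus raised by that choice and is no result about these genes as a set. Values are the PE difference minus the ES difference on the log2 scale.

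Among genes of the germ line and the X chromosome it was 3.12 for Dazl, 2.44 for Slc25a31, 2.28 for Asz1, 2.26 for Sohlh2, 1.79 for Efhc2 and 3.11 for Rpl39l. Of the meiotic genes it was 1.72 for Stra8, 1.71 for Sycp3 and 1.09 for Tex12. For genes outside the germ line it was 3.84 for Cck, 3.79 for Thbd, 3.31 for Ptger3, 3.21 for Tcim, 3.01 for Cpe, 2.84 for Sema6d, 2.71 for Wfdc15a, 2.62 for Car8, 2.57 for Mgst2 and 2.47 for Cd68. Grhl2 had 1.79 and S100g 1.41.

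The PE difference lay below the ES difference for pluripotency, Nodal and FGF genes, by -4.32 for Tdgf1, -4.27 for Lefty2, -3.83 for Fgf4, -3.73 for Sox2, -3.18 for Etv5, -2.56 for Nanog, -2.02 for Nodal, -1.98 for Gdf3, -1.96 for Pou5f1 and -1.59 for Nr0b1. Fgf5 had the lowest value, -4.57, from -1.97 in PE and 2.60 in ES cells. In genes of surface and immune proteins it was -3.94 for Ifitm1, -3.48 for Ly6e, -3.14 for H2-Q2, -2.23 for H2-Q10 and -1.72 for Ifitm2. Further genes were Mtm1 (-3.69), Id3 (-3.22), Igfbp2 (-3.11), Otx2 (-3.10), Dsp (-2.98), Sulf1 (-2.85), Fabp5 (-2.84), Tfec (-2.55), Mest (-2.36), Bmp6 (-2.31) and Fn1 (-1.16). Pdha2 had -1.59, from 1.61 in PE and 3.20 in ES cells. Dnmt3b, deleted in both states, had -1.51, from -5.43 in PE and -3.92 in ES cells.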

How the results depend on the processing

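Against 206 higher and 150 lower genes, the replicate block on the 4 PE arrays gave 277 higher and 227 lower genes, which held all 356 calls, and it ended no call. The number of genes whose PE difference differed from the ES difference, 247, became 666 with the replicate block within each state, 525 with the 8 ES and PE arrays only and 128 without the 40% of genes of lowest mean, where the ES count of 252 became 120. A 4-fold threshold left 90 genes (53 higher, 37 lower) and no fold threshold 637 (357 higher, 280 lower). Leaving out 1 array at a time gave 223 to 269 genes called in PE, 140 to 157 higher, 77 to 116 lower, 126 to 240 in ES cells and 132 to 204 for the difference between states. The other alternatives gave 268 to 489 genes called in PE. Without the probe sets marked as reading several transcripts, Ly6e (0.18) and Ptger3 (-0.0051) turned direction. Over the 96 called genes named, 1443 of 1584 values kept their call and direction, 132 lost the call, 7 fell under 2-fold within 1 scan day and 2 were the turned ones, and 59 genes kept the call without any 1 PE array. The causes were not tested. With 2 arrays a group, an exact permutation test could not pass, and changes from the lowest values are bounded by the floor of the arrays.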
